A study of Mus musculus with 17 samples.

Results

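Messenger RNA levels of 10 genes of eicosanoid synthesis were followed in mouse AB12 mesothelioma tumors with and without anti-CTLA4 treatment. The genes were Ptgs1, Ptgs2, Ptges, Ptgis, Tbxas1, Hpgds, Alox5, Alox5ap, Alox15 and Ltc4s, and they were found as the rows of the count table whose Ensembl identifier carried one of these symbols in Gencode vM21, which gave 10 of the 55450 genes counted. The 10 genes were chosen by symbol with earlier results of these libraries known, among them lower counts of arachidonic acid genes in untreated tumors at day 14 (d14) than at day 10 (d10) and lower Alox15 at d10 than at day 6 (d6). Values across the untreated time course, and the treatment by time values that contain it, are therefore given as a description, without a test.

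AB12 is a BALB/c mesothelioma cell line that grows as a tumor after injection into the peritoneum of syngeneic mice. Each of the 17 libraries came from the peritoneal tumor of 1 female BALB/c mouse, 8 weeks old per the study's methods, and all mice carried AB12 tumors. There were 3 untreated tumors of d6, 5 of d10 and 3 of d14. Tumors of mice injected intraperitoneally with 200 µg doses of a CTLA-4 blocking antibody (anti-CTLA4, clone 9D9) were collected at d10 (n = 3) and d14 (n = 3), the latter after injections on d6 and d10 per the study's methods. The untreated libraries carried no label of a control antibody. These tumors are grown from 1 cell line, and each library mixes tumor cells with host cells.

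Eicosanoids are short-lived lipid signals made from arachidonic acid, which phospholipases cut from cell membranes. The cyclooxygenases turn it into prostaglandin H2, from which separate synthases make prostaglandin E2, prostacyclin, thromboxane A2 and prostaglandin D2, lipids that act on blood flow, platelets and inflammation. The 5-lipoxygenase branch makes leukotrienes, which attract and activate leukocytes, and 12/15-lipoxygenase, abundant in resident peritoneal macrophages and eosinophils of mice, makes hydroxylated fatty acids.

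RefSeq promoter windows (GRCm38.p6, 250 bases before to 50 bases after the start) were found for 7 of the 10 genes, not for Ptgis, Alox5ap and Alox15. The windows of Ptgs2, Tbxas1, Alox5 and Ltc4s are shown because these genes differed most clearly in how their levels moved: Tbxas1 and Ltc4s moved together, Alox5 was highest at d6 and Ptgs2 followed none of them. They lie at chr1:150099781-150100080 on the plus strand (Ptgs2), chr6:38918736-38919035 on the plus strand (Tbxas1), chr6:116461129-116461428 on the minus strand (Alox5) and chr11:50238483-50238782 on the minus strand (Ltc4s). The RefSeq start of Tbxas1 lies inside the gene as Gencode draws it. Each sequence runs 5′ to 3′ along the gene, and capitals mark matches of GAGGAA (a core bound by PU.1 and other ETS factors), TATAAA (the TATA box), GGGCGG (the GC box) and ACGTCA (part of a cAMP response element) on either strand.
Ptgs2: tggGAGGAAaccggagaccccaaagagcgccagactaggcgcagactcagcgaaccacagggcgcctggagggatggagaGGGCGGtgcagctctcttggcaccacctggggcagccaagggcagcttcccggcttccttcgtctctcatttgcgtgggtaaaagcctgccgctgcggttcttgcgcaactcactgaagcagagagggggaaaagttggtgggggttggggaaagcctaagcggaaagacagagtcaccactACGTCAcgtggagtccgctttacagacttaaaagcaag
Tbxas1: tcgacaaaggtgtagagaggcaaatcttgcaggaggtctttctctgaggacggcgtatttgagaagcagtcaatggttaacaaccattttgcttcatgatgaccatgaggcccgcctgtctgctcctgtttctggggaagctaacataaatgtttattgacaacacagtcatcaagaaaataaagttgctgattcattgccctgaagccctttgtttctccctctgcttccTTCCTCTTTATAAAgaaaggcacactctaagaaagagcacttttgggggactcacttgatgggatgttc
Alox5: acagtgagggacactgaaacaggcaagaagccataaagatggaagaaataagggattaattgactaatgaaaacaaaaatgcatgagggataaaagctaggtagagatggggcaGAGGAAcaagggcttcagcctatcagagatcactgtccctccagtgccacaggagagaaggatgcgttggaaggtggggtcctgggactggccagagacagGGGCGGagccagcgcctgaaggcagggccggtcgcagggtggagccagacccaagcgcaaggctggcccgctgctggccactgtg
Ltc4s: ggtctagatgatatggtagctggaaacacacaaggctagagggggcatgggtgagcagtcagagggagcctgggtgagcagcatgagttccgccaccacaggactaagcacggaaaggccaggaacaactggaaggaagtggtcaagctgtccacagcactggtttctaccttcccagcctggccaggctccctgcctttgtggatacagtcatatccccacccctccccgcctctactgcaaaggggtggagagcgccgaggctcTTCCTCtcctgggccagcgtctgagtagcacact
GAGGAA was found in all 7 windows of these genes and in 28.3% of the 32851 RefSeq windows. In Ltc4s it lay on the opposite strand from position 17 after the start, and in Tbxas1 on the opposite strand from position -19. TATAAA was found only in Tbxas1 among the 7, from -11 on the same strand and from -13 on the opposite strand with the 2 matches overlapping, and in 13.6% of all windows. GGGCGG was found in Alox5, Ptges and Ptgs2 and in 35.7% of all windows. ACGTCA was found only in Ptgs2 among the 7, from position 13, and in 7.51% of all windows. These matches describe letters in a window and were not compared with binding data.

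The files held whole-number counts of uniquely mapped reads per gene. Library totals ran from 46371577 to 96759833 counts, with a median of 72413343. All 10 genes passed the filter on low counts in every comparison, with between 109 counts (Hpgds) and 22904 counts (Ptgs2) in a library. Levels are given as CPM, counts relative to a library size that was scaled over the 17 libraries by the trimmed mean of M-values (TMM), with the SD between mice. The 6 mesothelial markers summed to between 775 and 1646 CPM in every library. Clustering on 1133 pseudogenes and small RNAs placed the libraries in 3 sets (their number was set once the tree had been seen), namely all untreated d6 with untreated d10 replicates 1 to 3, untreated d10 replicates 4 and 5 with all treated d10, and all d14 libraries of both arms. The labels do not say what these sets are. Differences between d6 and d14, and between d10 and d14, therefore cannot be told apart from these sets. By contrast, treated and untreated d14 tumors lie within 1 set. In 2 of the treated d14 libraries, replicates 1 and 3, 5 pancreatic acinar markers summed to 2753 and 938 CPM, against at most 3.79 CPM in every other library. In these bulk samples, fewer cells of a type and less RNA per cell cannot be told apart.

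In untreated tumors the lipoxygenase Alox15 made up the largest part of the 10 transcripts at d6 and a small part afterwards, while Ptgis, Tbxas1, Alox5ap and Ltc4s were lowest at d14. The size of a change was estimated with edgeR across all genes, and a gene was counted as past the thresholds at adjusted p below 0.05 and a fold change above 2. Between d6 and d10, 2 of the 10 genes were past the thresholds in the lower direction, Alox5 and Alox15, and none in the higher, where 2.66% of all genes tested were lower and 4.79% higher. Between d10 and d14, 4 genes were past them in the lower direction, Ptgis, Tbxas1, Alox15 and Ltc4s, and none in the higher, beside 3.45% lower and 3.78% higher of all genes. Between d6 and d14 there were 3 lower genes, Alox5, Alox15 and Ltc4s, and none higher, beside 8.81% lower and 10.2% higher. Nothing is read from these counts, since the comparisons were known when the genes were chosen. The d14 to d10 count was 2 without TMM scaling, with Ptgis and Alox15 no longer past the thresholds, and 1 without untreated d10 replicate 2, with only Ltc4s left.

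Among the cyclooxygenases, Ptgs1 is the constitutive enzyme (chromosome 2, 36230426 to 36252272, plus strand, ENSMUSG00000047250.13). Its level was 65.4, 80.6 and 66.4 CPM in the 3 d6 tumors, 61.7, 62.5, 42.6, 64.1 and 67.6 CPM in the 5 d10 tumors and 66.2, 54.2 and 55.6 CPM in the 3 d14 tumors. The groups overlapped, with only d10 replicate 3 below 50 CPM, and the log2 difference between d14 and d10 was -0.03 ± 0.15 (SE). Ptgs2, the inducible cyclooxygenase (chromosome 1, 150100031 to 150108227, plus strand, ENSMUSG00000032487.8), stood at 115, 139 and 86.2 CPM at d6, at 176, 188, 226, 122 and 154 CPM at d10 and at 217, 266 and 162 CPM at d14. The d14 tumors lay above all d6 tumors, d10 overlapped both, and the log2 difference between d14 and d6 was 0.94 ± 0.21. Per kilobase of exon, Ptgs2 stood at 1.10 to 1.49 times Ptgs1 in the d6 tumors and at 2.47 to 4.16 times in the untreated d14 tumors.

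**Figure D1:**
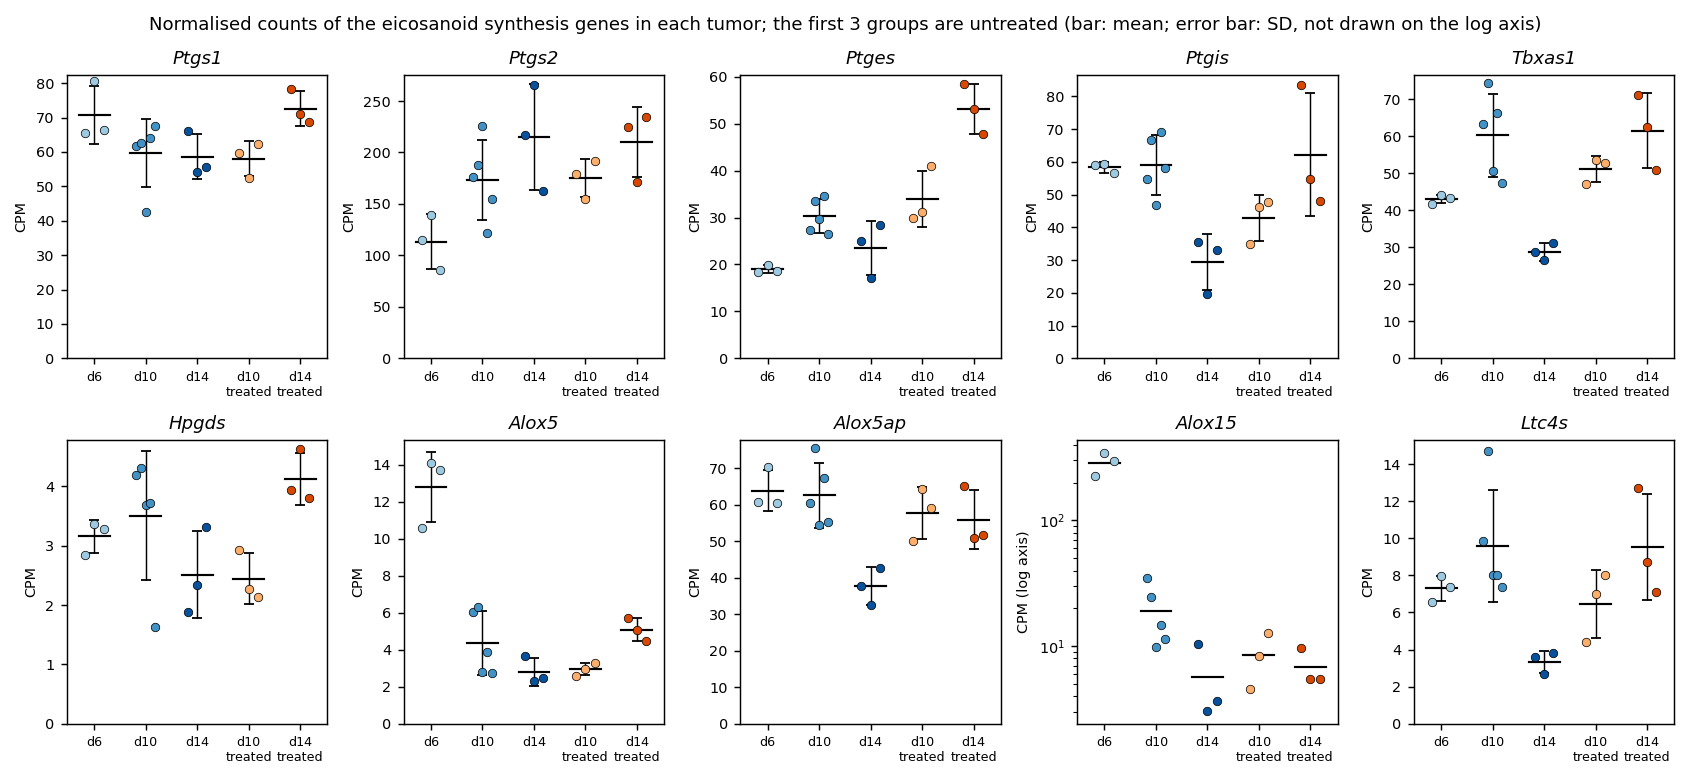
Level of each of the 10 genes (CPM, linear axes from 0 except Alox15 on a log axis) in every tumor, by group, the first 3 groups being untreated, with the group mean as a bar and the SD as an error bar where the axis is linear. Untreated d14 tumors lie below the treated d14 tumors for Tbxas1 (26.4 to 31.2 against 50.9 to 71.0 CPM) and for Ltc4s, and Alox15 is at or above 224 CPM in the d6 tumors and at or below 35.1 CPM in all others.

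Of the synthases that act on prostaglandin H2, Ptges (chromosome 2, 30889471 to 30929863, minus strand, ENSMUSG00000050737.13), the inducible prostaglandin E2 synthase, was at 18.4, 19.95 and 18.7 CPM at d6, at 27.4, 33.5, 29.7, 34.6 and 26.6 CPM at d10 and at 25.0, 17.2 and 28.4 CPM at d14. All d10 tumors exceeded all d6 tumors, by 0.70 ± 0.12 on the log2 scale, and the d14 tumors overlapped both. Ptgis, the prostacyclin synthase (chromosome 2, 167191805 to 167240604, minus strand, ENSMUSG00000017969.13), held 59.1, 59.5 and 56.5 CPM at d6 and 54.7, 66.8, 46.7, 69.3 and 58.2 CPM at d10, and was at 35.4, 19.8 and 33.1 CPM at d14. No d14 tumor reached the lowest d10 tumor, and the log2 difference was -1.01 ± 0.20.

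Tbxas1, the thromboxane A2 synthase (chromosome 6, 38875404 to 39084585, plus strand, ENSMUSG00000029925.13), stood at 41.8, 44.1 and 43.2 CPM at d6, at 63.1, 74.2, 50.5, 66.2 and 47.2 CPM at d10 and at 28.7, 26.4 and 31.2 CPM at d14. The 3 time points did not overlap, with d10 highest and d14 lowest, and d14 differed from d10 by -1.07 ± 0.15 on the log2 scale. Hpgds, the haematopoietic prostaglandin D2 synthase of mast cells, macrophages and T cells (chromosome 6, 65117293 to 65144908, minus strand, ENSMUSG00000029919.5), was the lowest of the 10 per kilobase, at 0.492 ± 0.0433, 0.546 ± 0.170 and 0.391 ± 0.115 CPM per kb (SD) at d6, d10 and d14. Its d14 to d10 difference was -0.48 ± 0.32 on the log2 scale and its groups overlapped.

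In the leukotriene branch, Alox5 (chromosome 6, 116410077 to 116461178, minus strand, ENSMUSG00000025701.12), the 5-lipoxygenase that starts leukotriene synthesis, was at 10.6, 14.1 and 13.7 CPM at d6, at 6.06, 6.32, 2.80, 3.87 and 2.74 CPM at d10 and at 3.66, 2.30 and 2.45 CPM at d14. Every d6 tumor stood above every later tumor, by a log2 difference of -1.53 ± 0.29 from d6 to d10, and d10 and d14 overlapped. Within the set of libraries shared by d6 and d10 replicates 1 to 3 the same difference was -1.31 ± 0.26. Alox5ap, the membrane protein that hands arachidonic acid to 5-lipoxygenase (chromosome 5, 149264767 to 149288153, plus strand, ENSMUSG00000060063.9), did not follow Alox5 at d10, with 60.8, 70.4 and 60.4 CPM at d6 and 60.4, 75.7, 54.5, 67.5 and 55.3 CPM at d10, and then 37.9, 32.5 and 42.8 CPM at d14.

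The d14 tumors lay below all earlier tumors for Alox5ap, at -0.74 ± 0.14 against d10. Ltc4s, which joins glutathione to leukotriene A4 and so opens the cysteinyl leukotriene branch (chromosome 11, 50236461 to 50238616, minus strand, ENSMUSG00000020377.15), was at 6.58, 7.94 and 7.39 CPM at d6, at 9.87, 14.7, 8.03, 7.99 and 7.38 CPM at d10 and at 3.58, 2.67 and 3.79 CPM at d14. Its d14 tumors were again below all others, at -1.52 ± 0.25 against d10, and the difference was -1.69 ± 0.25 against d10 replicates 1 to 3 alone and -1.21 ± 0.20 against replicates 4 and 5 alone.

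Alox15, the 12/15-lipoxygenase (chromosome 11, 70344152 to 70352031, minus strand, ENSMUSG00000018924.6), varied most of the 10, by 113-fold between the lowest and the highest library. It was at 224, 346 and 295 CPM in the d6 tumors, at 35.1, 24.6, 9.86, 14.7 and 11.3 CPM in the d10 tumors and at 10.4, 3.07 and 3.65 CPM in the d14 tumors. Each d6 tumor stood far above every later tumor, d10 and d14 overlapped through d14 replicate 1, and the fitted level was 14.9-fold lower at d10 than at d6 (log2 -3.90 ± 0.38), with a log2 difference of -5.65 ± 0.46 between d14 and d6. Against d6, d10 replicates 1 to 3 differed by -3.62 ± 0.38 and d10 replicates 4 and 5 by -4.45 ± 0.22.

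Summed per kilobase, the 10 transcripts fell into different proportions at d6 and later. Alox15 took 41.9 to 49.8% of the summed CPM per kb in the d6 tumors, 2.81 to 9.03% at d10 and 1.09 to 3.44% at d14. Ptgs2 took 7.80 to 11.5% at d6 and 32.3 to 50.6% in untreated d14 tumors, its highest share being in d14 replicate 2. The sum itself was 218 to 286 CPM per kb at d6, 137 to 180 at d10 and 110 to 123 at d14, without overlap between the 3 time points.

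**Figure D2:**
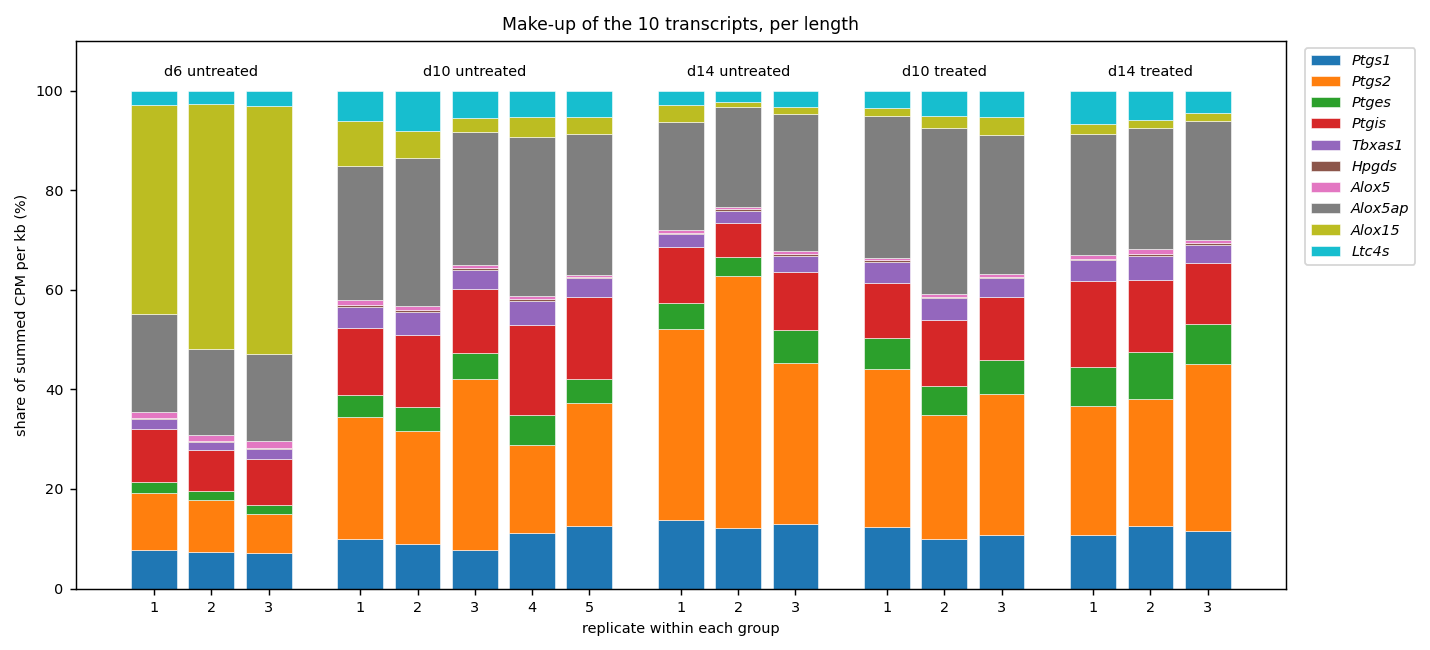
Share of each gene in the summed CPM per kb of exon of the 10 genes (%, stacked bars), 1 bar per tumor, by group. Alox15 fills 41.9 to 49.8% of the bar in the d6 tumors and at most 9.03% in every later one, and Ptgs2 fills 32.3 to 50.6% in the untreated d14 tumors.

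Treatment with anti-CTLA4 was compared with no treatment at d14, which asks how the antibody altered the tumors. This comparison shares its untreated d14 tumors with the time course above, and lower arachidonic acid genes in those tumors were known when the 10 genes were chosen, so that the counts and p-values of this comparison are not independent of that choice and nothing is read from the counts beside the shares of all genes. The terminal synthases of prostaglandin E2, prostacyclin, thromboxane and cysteinyl leukotrienes were about 2 to 3 times as abundant in treated as in untreated d14 tumors, whereas Ptgs2 and Alox15 differed by less than their error. Of the 10 genes, 4 rose (Ptges, Ptgis, Tbxas1 and Ltc4s) and none fell, beside 9.07% of all genes higher and 2.40% lower, and 8 had an adjusted p below 0.05 in the higher direction at any fold change, beside 17.7% of all genes. In 8 of 10 every treated d14 tumor was above every untreated one, beside 24.1% of all genes tested. The median log2 difference was 0.82 over the 10 genes and -0.0043 over all genes. DESeq2 also called 4, and leaving out 1 library at a time gave 3 to 5, Ptgis being lost without treated d14 replicate 1 or untreated d14 replicate 2.

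Ptges stood at 58.4, 53.1 and 47.7 CPM in the 3 treated d14 tumors, above all 3 untreated d14 tumors and above all 14 other libraries. It rose 2.31-fold (log2 1.21 ± 0.18, edgeR adjusted p = 0.00578). Ptgis was at 83.5, 54.9 and 48.2 CPM in treated d14 tumors, all above the untreated ones, with replicate 1 apart from the other two, and rose 2.16-fold (log2 1.11 ± 0.27, edgeR adjusted p = 0.0192). Tbxas1 stood at 70.9, 62.5 and 50.9 CPM, all above the untreated tumors, and rose 2.19-fold (log2 1.13 ± 0.13, edgeR adjusted p = 0.0046).

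Ltc4s was at 12.7, 8.73 and 7.12 CPM in treated d14 tumors, each above every untreated d14 tumor, and rose 2.91-fold (log2 1.54 ± 0.25, edgeR adjusted p = 0.00657). Its partners upstream had lower fitted folds, a difference between genes that was not tested. Alox5, at 5.74, 5.05 and 4.49 CPM, was 1.86-fold higher (log2 0.90 ± 0.22, edgeR adjusted p = 0.0213). Alox5ap, at 65.2, 50.8 and 51.8 CPM, was 1.52-fold higher (log2 0.60 ± 0.14, edgeR adjusted p = 0.0155). In both, no treated tumor overlapped an untreated one and the fold was below 2. For Alox5 it was above 2 without treated d14 replicate 3 or untreated d14 replicate 1, and the edgeR adjusted p was 0.0669 without treated d14 replicate 1 and 0.06 without treated d14 replicate 2. Hpgds (log2 0.75 ± 0.23, edgeR adjusted p = 0.0395) and Ptgs1 (log2 0.34 ± 0.11, edgeR adjusted p = 0.0422) likewise differed at a fold below 2.

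Ptgs2 stood at 225, 172 and 235 CPM in treated d14 tumors, within the range of the untreated ones, at a log2 difference of 0.00 ± 0.18 (edgeR adjusted p = 0.988). Alox15 stood at 9.68, 5.48 and 5.54 CPM, overlapping the untreated range of 3.07 to 10.4 CPM, at a log2 difference of 0.30 ± 0.47 (edgeR adjusted p = 0.65). Whether these 2 genes responded differently from the 4 that rose was not tested.

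**Figure D3:**
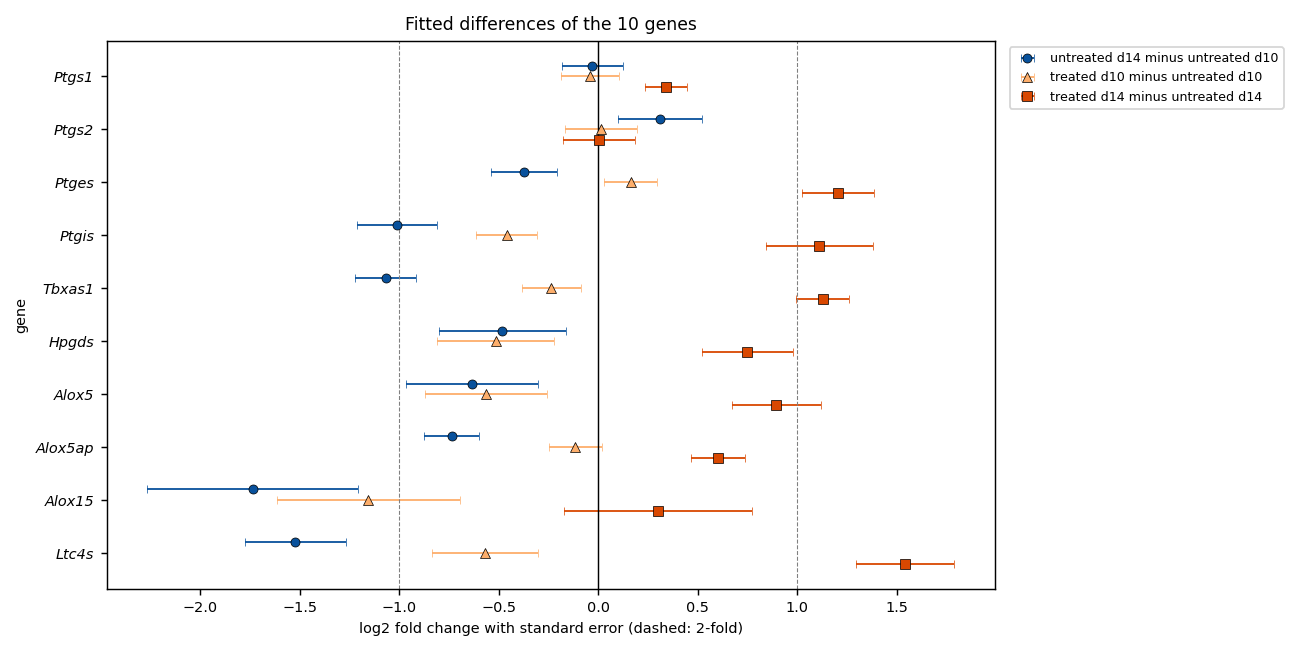
Fitted log2 fold change of each gene (x axis, points with SE) for untreated d14 minus untreated d10 (circles), treated d10 minus untreated d10 (triangles) and treated d14 minus untreated d14 (squares); dashed lines mark a 2-fold change. The first and the last comparison share the untreated d14 tumors, and Ltc4s lies at -1.52 in the former and 1.54 in the latter.

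The comparison of treated with untreated tumors of d10 shares its untreated tumors with the time course known when the genes were chosen. Its counts and p-values are therefore not independent of that choice. Between treated and untreated tumors of d10 none of the 10 genes passed the thresholds in edgeR or DESeq2, where over all genes 0.0174% were higher and 0% lower. An unadjusted p below 0.05 was found for 2, Ptgis and Alox15, beside 13.5% of all genes. Alox15 was at 4.54, 8.30 and 12.9 CPM in treated d10 tumors and overlapped the untreated range, with a log2 difference of -1.16 ± 0.46 (edgeR adjusted p = 0.339). Against the d10 replicates 4 and 5 of the same library set its difference was -0.62 ± 0.36 (edgeR adjusted p = 0.373), and against replicates 1 to 3 of the other set it was -1.43 ± 0.44 (edgeR adjusted p = 0.0354). For Ltc4s the treated d10 tumors had 4.43, 6.996 and 7.99 CPM, a log2 difference of -0.57 ± 0.27 (edgeR adjusted p = 0.389), or -0.74 ± 0.25 against replicates 1 to 3 (edgeR adjusted p = 0.0502). Hpgds differed by -0.52 ± 0.30 (edgeR adjusted p = 0.462), and by -0.72 ± 0.18 against replicates 1 to 3 (edgeR adjusted p = 0.0149) but -0.14 ± 0.34 against replicates 4 and 5 (edgeR adjusted p = 0.853).

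The treated minus untreated difference at d14, less that at d10, contains the untreated d10 to d14 difference that was known when the genes were chosen, and it is given as a description only. It was 2.10 ± 0.40 on the log2 scale for Ltc4s, 1.57 ± 0.32 for Ptgis, 1.45 ± 0.42 for Alox5, 1.35 ± 0.22 for Tbxas1, 1.25 ± 0.41 for Hpgds, 1.04 ± 0.24 for Ptges, 0.71 ± 0.20 for Alox5ap and -0.03 ± 0.29 for Ptgs2. The first 6 of these were past both thresholds in the higher direction and none in the lower, beside 9.67% of all genes higher and 2.15% lower, and 7 with Alox5ap at any fold change, beside 11.9% of all genes. Nothing is read from these counts. When 1 library was left out the count of 6 ranged from 3 to 6, Ptgis, Tbxas1 and Ltc4s being past the thresholds each time and Hpgds in only 2 of the 14 fits. The value of 3 arose without untreated d14 replicate 2, treated d14 replicate 1, treated d10 replicate 1 or treated d10 replicate 2.

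Set beside untreated d10 tumors, treated d14 tumors did not overlap in 3 of the 10 genes, beside 34.1% of all genes tested, a like share. The untreated d10 tumors belong to the time course that was known, also for Alox15, when the genes were chosen. Counts and p-values of this comparison are therefore not independent of that choice. Alox15 alone passed the thresholds, in the lower direction, beside 5.34% of all genes higher and 2.49% lower. It was 2.83-fold lower (log2 -1.498 ± 0.43, edgeR adjusted p = 0.0291), a call lost without untreated d10 replicate 2, treated d14 replicate 2 or treated d14 replicate 3. Ptges was 1.70-fold higher (log2 0.77 ± 0.12, edgeR adjusted p = 0.00304), with all treated d14 above all untreated d10 tumors, and Tbxas1 differed by -0.01 ± 0.16 (edgeR adjusted p = 0.976). Over all genes, 68.2% of the calls were higher in treated d14 tumors, and 82.2% without TMM scaling, which moved the median of all genes from -0.03 to 0.11.

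Between treated d10 and treated d14 tumors none of the 10 passed the thresholds in edgeR or DESeq2 beside 9.00% of all genes higher and 2.48% lower, and 8 had an unadjusted p below 0.05, beside 54.9% of all genes. No library of this comparison belongs to the untreated time course. In 5 genes (Ptgs1, Ptges, Ptgis, Hpgds and Alox5) the adjusted p was below 0.05 in the higher direction, beside 23.3% of all genes. Alox5, at 2.60, 2.95 and 3.27 CPM at d10, was 1.75-fold higher at d14 (log2 0.81 ± 0.16, edgeR adjusted p = 0.00345), without overlap. Ptges, at 29.9, 31.2 and 40.9 CPM at d10, was 1.58-fold higher (log2 0.66 ± 0.13, edgeR adjusted p = 0.00305), also without overlap. Without TMM scaling the median of all genes moved from 0.04 to 0.16 in this comparison.

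Marker genes of several host cells moved with these results. The 8 macrophage markers (Adgre1, Csf1r, Cd68, Fcgr1, Mrc1 and the 3 C1q genes) summed to 1606 to 1733 CPM at d6, 1654 to 2678 at d10, 758 to 1084 in untreated d14, 1460 to 1743 in treated d10 and 1710 to 2119 in treated d14 tumors. Of them, 4 fell from d10 to d14 in untreated tumors and 6 rose in treated against untreated d14 tumors. Per 1000 CPM of these markers, Tbxas1 stood at 27.7 to 30.6 CPM in untreated d10 and 28.0 to 34.9 in untreated d14 tumors. In treated d14 tumors it stood at 29.8 to 33.5, and these groups overlapped. The Tbxas1 level itself was lower in untreated d14 than in untreated d10 or treated d14 tumors, without overlap. On the ratio, every d6 tumor stood below every untreated d10 tumor. Ltc4s per 1000 CPM of the same markers was 3.48 to 3.52 in untreated and 4.16 to 5.99 in treated d14 tumors, which did not overlap.

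Alox5ap per 1000 CPM of macrophage markers was 36.8 to 42.8 in untreated and 24.6 to 30.8 in treated d14 tumors, the reverse order of its level. Ptges per 1000 CPM of these markers was 22.6 to 26.2 in untreated and 25.7 to 27.9 in treated d14 tumors, and overlapped. The 6 fibroblast markers (Col1a1, Col1a2, Pdgfra, Dcn, Lum and Fap) summed to 852 to 1657 CPM in untreated and 2155 to 3313 CPM in treated d14 tumors, and 5 of 6 rose. Ptgis, which stromal and vascular cells express, was at 21.4 to 25.5 CPM per 1000 CPM of the fibroblast markers in untreated and at 16.6 to 29.3 in treated d14 tumors, which overlapped. The 5 endothelial markers (Pecam1, Cdh5, Emcn, Kdr and Vwf) summed to 88.8 to 105 CPM in untreated and 146 to 177 CPM in treated d14 tumors, without overlap, and 1 of 5 rose.

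For Alox15 and Alox5, 6 resident peritoneal macrophage markers (Gata6, Icam2, Timd4, Selp, Cd5l and Prg4) summed to 306 to 392 CPM at d6, 65.9 to 237 at d10, 46.2 to 73.7 in untreated d14, 49.2 to 92.8 in treated d10 and 81.2 to 111 in treated d14 tumors, and 4 of 6 fell from d6 to d10. Per 1000 CPM of these, Alox15 was at 733 to 881 CPM at d6 and at 51.7 to 172 CPM in every later untreated tumor, so that its level was lower than at d6 by more than that of the markers. Alox5, by contrast, was at 34.6 to 36.2 CPM at d6, within the 18.1 to 42.1 CPM seen at d10. The 5 eosinophil markers (Siglecf, Epx, Prg2, Ccr3 and Il5ra) summed to 29.3 to 35.01 CPM at d6, 5.50 to 14.8 at d10 and 1.61 to 2.89 in untreated d14 tumors, 3 of 5 falling from d6 to d10. Per 1000 CPM of these, Alox15 was at 7330 to 11800 CPM at d6 and at 1534 to 3605 CPM later in untreated tumors. No marker of these 4 lists was at 0 in a whole group, and their part in the results beyond these ratios was not tested.

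**Figure D4:**
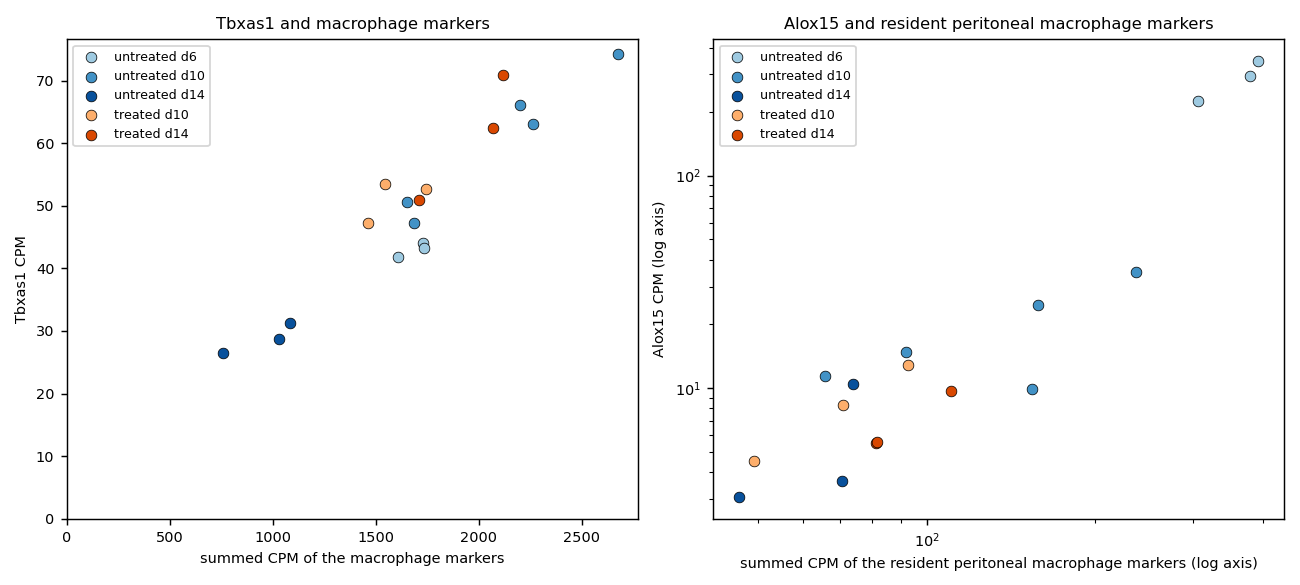
Left, Tbxas1 (CPM) against the summed CPM of 8 macrophage markers; right, Alox15 (CPM) against the summed CPM of 6 resident peritoneal macrophage markers, on linear axes at left and log axes at right; each point is 1 tumor, coloured by group. Tbxas1 keeps to 24.9 to 34.9 CPM per 1000 CPM of markers in all groups, while the d6 tumors stand at 733 to 881 Alox15 CPM per 1000 CPM of markers and all others at or below 172.

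Platelets, mast cells and neutrophils also express members of the pathway. The 6 platelet markers summed to at most 16.8 CPM in any library, with Gp1bb at 0 throughout 4 of the 5 groups, 7 mast cell markers to at most 34.6 CPM and 7 neutrophil markers to 65.4 to 221 CPM. Neutrophil markers summed to 157 to 208 CPM in treated and 65.4 to 119 CPM in untreated d14 tumors, without overlap, and 3 of 7 rose. Eosinophil markers summed to 4.68 to 8.34 CPM in treated and 1.61 to 2.89 CPM in untreated d14 tumors, and 3 of 5 rose. The 7 T cell markers summed to 245 to 278 CPM in treated and 92.7 to 166 CPM in untreated d14 tumors, and 3 of 7 rose. The mesothelial sum was lower in treated (775 to 869 CPM) than in untreated d14 tumors (1143 to 1264 CPM), although 2 of its 6 genes rose and none fell past the thresholds. The 4 adipocyte markers (Adipoq, Cfd, Plin1 and Lep) summed to 12.3 to 33.4 CPM at d6 and 9.79 to 21.1 CPM at d10. In untreated d14 tumors they summed to 1.10 to 3.78 CPM. The part of these cells in the results was not tested.

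Outside the 10 genes, 52 further genes of the pathway in 4 lists were counted in the table. In the treated against untreated d14 comparison 42 of them were tested, of which 11 rose and 1 fell, beside 9.07% and 2.40% of all genes, and their median log2 difference was 0.61. The lists were chosen with results of the untreated time course known, and that course shares the untreated d14 tumors. Counts and p-values of this comparison are therefore not independent of that choice, and nothing is read from the counts. By list, 6 of 13 tested enzymes rose, 4 of 13 receptors rose, and 1 of 8 phospholipases rose and 1 fell. None of 8 transport and inactivation genes passed the thresholds in edgeR. Of these 8, 5 had an unadjusted edgeR p below 0.05, in both directions. Nothing is read from this, as 3188 higher and 2665 lower of all 18062 genes had even an adjusted p below 0.05. Of the enzymes that rose, Alox8 averaged 0.168 CPM in treated and 0.0739 CPM in untreated d14 tumors, and Dpep1 0.767 and 0.213 CPM. Their folds, like that of Ggt1 given below, rest on low counts. The count of higher genes was 4 without untreated d14 replicate 2, 5 without untreated d14 replicate 1, 17 without untreated d14 replicate 3, 7 without treated d14 replicate 1 and 7 without treated d14 replicate 2. The largest changes by list were in Ptgir, the prostacyclin receptor (log2 1.36 ± 0.18, edgeR adjusted p = 0.00495), Pla2g2d, a secreted phospholipase (log2 1.65 ± 0.36, edgeR adjusted p = 0.0137), Pla2g4c, a cytosolic phospholipase that fell (log2 -1.27 ± 0.15, edgeR adjusted p = 0.00443), and Ggt1, which trims leukotriene C4 (log2 3.87 ± 0.93, edgeR adjusted p = 0.0187).

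Ptgir stood at 13.7, 13.1 and 10.9 CPM in treated and 5.66, 3.86 and 5.53 CPM in untreated d14 tumors, without overlap. Pla2g4c stood at 2.25, 2.61 and 2.49 CPM in treated and 6.30, 6.24 and 5.59 CPM in untreated d14 tumors, also without overlap. Ggt1 was at 2.44 and 0.796 CPM in the 2 treated d14 libraries with pancreatic markers and at 0.195 CPM in the third, and at no more than 0.108 CPM in untreated d14 tumors. Pla2g4a, the cytosolic phospholipase that supplies most arachidonic acid in many cells and a gene chosen for mention after its values were seen, ranged only from 114 to 147 CPM over the 17 libraries.

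The pathway lists were also chosen with results of the untreated time course known, and their genes are given there without a test. From d6 to d10, 5 of 40 were past the thresholds in the higher direction and 1 in the lower, beside 4.79% and 2.66% of all genes. Both counts were 0 without d6 replicate 3, and the higher count was 1 without d6 replicate 2 or d10 replicate 2 and 3 without d6 replicate 1 or d10 replicate 1. From d10 to d14, none of 39 was past them in the higher direction and 4 in the lower, beside 3.78% and 3.45%, and the lower count was 0 without d14 replicate 2, 1 without d14 replicate 1, 2 without d10 replicate 2 and 7 without d10 replicate 5. From d6 to d14, 3 of 39 were higher and 5 lower, beside 10.2% and 8.81%.

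The largest of these differences from d6 to d10 were in Tbxa2r, the thromboxane receptor (log2 1.63 ± 0.42), Aloxe3, an epidermal lipoxygenase (log2 1.76 ± 0.48), Pla2g2e (log2 1.24 ± 0.35) and Pla2g4c (log2 -1.28 ± 0.29). From d10 to d14 they were in Alox8 (log2 -2.24 ± 0.51) and Pla2g2d (log2 -2.19 ± 0.50). From d6 to d14, Cyp4f18, a leukotriene B4 hydroxylase, differed by -1.61 ± 0.21, Aloxe3 by 2.23 ± 0.49 and Pla2g2e by 1.44 ± 0.35. Pla2g2d and Alox8 were the largest of their lists in the lower direction from d6 to d14. Pla2g2d averaged 9.20 CPM at d6 and 2.08 CPM at d14, and Alox8 0.473 and 0.0739 CPM. Alox8, Aloxe3 and Pla2g2e stayed at or below 1.27 CPM in every library, so that these folds rest on low counts.

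In treated d10 against untreated d10 tumors none of 41 tested pathway genes passed the thresholds in edgeR, beside 0.0174% of all genes higher and 0% lower. An unadjusted p below 0.05 was found for 8 of them, beside 13.5% of all genes. DESeq2 called 1 lower, beside 166 of 17252 genes. Counts and p-values of comparisons with untreated d10 tumors are not independent of the choice of the lists. Against d10 replicates 1 to 3 alone 5 pathway genes were lower, beside 823 of 16963 genes. Against replicates 4 and 5 alone none passed, beside 60 higher and 36 lower of 17125 genes. Compared with treated d10 tumors, 4 of 41 genes rose in treated d14 tumors, beside 9.00% of all genes, or 7 without treated d14 replicate 3, among them Hpgd, the main prostaglandin-inactivating dehydrogenase (log2 2.49 ± 0.31, edgeR adjusted p = 6.41e-04), Ptgfr, the prostaglandin F receptor (log2 1.504 ± 0.24, edgeR adjusted p = 0.0016), and Ggt1 (log2 2.20 ± 0.75, edgeR adjusted p = 0.0363). Hpgd stood at 1.09, 1.29 and 0.739 CPM in treated d10 and at 7.83, 5.84 and 3.64 CPM in treated d14 tumors, which did not overlap, and at 1.55 to 8.32 CPM in untreated d10 and 1.11 to 4.53 CPM in untreated d14 tumors. For the difference between the d14 and d10 treatment values, described without a test as above, 18 of 44 pathway genes were past the thresholds in the higher direction and none in the lower, beside 9.67% and 2.15% of all genes. The count was 8 without untreated d14 replicate 2, 9 without treated d10 replicate 3, 10 without treated d14 replicate 1 or 2 and 11 without treated d10 replicate 2. The largest in their lists were Hpgd (log2 3.80 ± 0.78), Ptgfr (log2 2.05 ± 0.47), Ggt1 (log2 4.11 ± 1.0) and Pla2g1b, a pancreatic phospholipase (log2 6.59 ± 1.83). Pla2g1b was also the only one of 43 pathway genes past the thresholds between treated d14 and untreated d10 tumors (log2 6.04 ± 1.17, edgeR adjusted p = 0.00657). The count of higher genes there was 0 without untreated d10 replicate 1. It was 2 without treated d14 replicate 2, untreated d10 replicate 3 or untreated d10 replicate 4. In the lower direction 1 gene passed without untreated d10 replicate 4 or without untreated d10 replicate 5. Pla2g1b reached 10.7 and 3.33 CPM in the 2 treated d14 libraries with pancreatic markers and 0.065 CPM in the third.

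Across the 17 libraries the 10 genes varied in a few patterns, given here as descriptions because libraries of a group share their condition. Pearson's r of log2(CPM + 0.5) was 0.916 for Tbxas1 with Ltc4s (Spearman's rho 0.85), 0.912 for Alox5 with Alox15 (rho 0.789), 0.896 for Ptgis with Ltc4s (rho 0.676) and -0.714 for Ptgs2 with Alox15. Among 12075 protein coding genes with a mean of at least 1 CPM, the 3 closest to Alox15 were Padi4 (r = 0.964), Ucp1 (r = 0.963) and Icam2 (r = 0.962), the last a resident peritoneal macrophage marker, and Icam2 (r = 0.948) was also among the 3 closest to Alox5 with Ffar2 (r = 0.950) and the chemokine gene Ccl22 (r = 0.948).

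Closest to Ltc4s were C1qb (r = 0.937), a macrophage complement gene, Fcgr3 (r = 0.933), an Fc receptor gene, and Cnn3 (r = 0.932), and closest to Alox5ap were Cfp (r = 0.967), Npc2 (r = 0.958) and Rgs19 (r = 0.944). Tbxas1 lay nearest to Tmem159 (r = 0.957), Rnf130 (r = 0.954) and Akip1 (r = 0.952), and Ptges to Gab1 (r = 0.971), Dapk1 (r = 0.955) and Cd38 (r = 0.952). Ptgis was most like Dhrs3, Bmyc and Hspb1 (r from 0.919 to 0.924), and Ptgs2 most like Nipal1, Sgtb and Rai14 (r from 0.918 to 0.929). The likeness was weakest for Hpgds, with Cd59a, Pdcd4 and Klra2 (r from 0.855 to 0.862), and for Ptgs1, with Slpi, Jchain and Kcnj15 (r from 0.777 to 0.8). With Spearman's rho in place of Pearson's r, 14 of these 30 genes were again among the 3 closest.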

How the data were processed

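RNA-Seq counts of the 17 tumors were used, in 5 groups taken from the sample labels. Per the labels and the study's methods, the authors sequenced tumor RNA as paired ends of 75 or 100 bases (KAPA RNA HyperPrep), aligned them with TopHat2 (v2.0.14) to GRCm38/mm10 and counted uniquely mapped reads per Gencode vM21 gene with HTSeq. The deposited values are whole-number counts, not normalised. The strand setting is not given in the sources used here, and Ptgs1, Ptgis, Tbxas1, Alox5ap and Ltc4s overlap an exon of a gene on the opposite strand, whose reads cannot be separated without it. Which library was read at which length is also not given.

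Comparisons were fitted over all genes with the quasi-likelihood test of edgeR 4.0.16 (R 4.3.3) using filterByExpr, TMM scaling and only the groups compared, with Benjamini-Hochberg adjustment; the SE was obtained as log2 fold change over √F. A call needed an adjusted p below 0.05 and a fold change above 2, the study's thresholds. The interaction used the 4 groups of d10 and d14. DESeq2 1.42.0, other scalings, filters, gene sets, blocks and left-out libraries were alternatives. Code was tested on simulated data. Library pairs of a group differed by far more than counting noise (at least 18.5 in chi-square per gene), so that none was counted as a duplicate. Total depth was 46371577 to 96759833 counts. The labels name 1 mouse sample per library, and p-values measure the spread between these samples.

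The 10 genes, the pathway lists and the marker lists were chosen with earlier results of these data known. Counts and p-values of comparisons that use untreated d10 or d14 tumors are therefore not independent of that choice. Pathway genes named are, in each comparison and list, the called gene with the largest change in each direction. Dpep2, listed as 2 overlapping gene models in Gencode vM21, was not used. Genes of closest pattern were ranked by Pearson's r of log2(CPM + 0.5) among those with an official symbol and a mean of at least 1 CPM.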

Additional observations from a re-analysis of the deposited data

Results flagged for a closer look

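In 7 of the 10 genes the treated minus untreated difference at d14 was set apart from that at d10 by the interaction term of the edgeR fit. The rule was an adjusted p below 0.05 at any fold change, which 11.9% of all genes also met in the higher direction. That term contains the untreated d10 to d14 difference, which was known to be negative for arachidonic acid genes when the 10 genes were chosen, a choice that favours such differences, so that they are given as a description and not as a test. The differences on the log2 scale were 1.04 for Ptges, 1.57 for Ptgis, 1.35 for Tbxas1, 1.25 for Hpgds, 1.45 for Alox5, 0.71 for Alox5ap and 2.10 for Ltc4s. Hpgds was past the thresholds in only 2 of the 14 fits that left out 1 library. The untreated d10 and untreated d14 tumors enter these values with opposite signs to the treated ones, and the d10 and d14 libraries lie in different sets by their pseudogene and small RNA counts, which cannot be told apart from time.

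In the group of 5 untreated d10 tumors, the only group large enough to look at, a single tumor stood apart for 2 of the 10 genes. Ptgs1 was at 42.6 CPM in replicate 3 against 61.7 to 67.6 CPM in the other 4 tumors. Hpgds was at 1.62 CPM in replicate 5 against 3.69 to 4.32 CPM in the other 4. Chance alone marks about 1 in 20 such groups.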

How the results depend on the processing

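Of 1380 values of the 10 genes recomputed under another setting, none that passed the thresholds in either fit changed its sign; 70 that passed in neither did, all of them at most 0.30 in size. The number of the 10 genes past the thresholds stayed within 1.5 times the value given in the report except as follows; the cause of the change without TMM scaling was not tested. At an adjusted p below 0.05 and any fold change it was 4 for untreated d10 against d6, beside 1767 higher and 1186 lower of 16866 genes. At this threshold it was 7 for untreated d14 against d6, beside 4375 higher and 4460 lower of 17172 genes. For treated against untreated d14 it was 8, beside 3188 higher and 2665 lower of 18062. For treated d14 against untreated d10 it was 2, beside 2242 higher and 2762 lower of 18057. For treated d14 against treated d10 it was 5, beside 4151 higher and 4139 lower of 17791. For untreated d14 against d10 it was 2 without TMM scaling and 2 with d10 replicates 4 and 5 alone. With d10 replicates 1 to 3 alone it was 1 (Alox15) for treated against untreated d10, and with replicates 4 and 5 alone it was 0 for treated d14 against untreated d10.

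Leaving out 1 library at a time gave 1 to 4 genes for untreated d14 against d10 (1 without untreated d10 replicate 2 and 2 without untreated d14 replicate 2), 2 to 5 for untreated d14 against d6 (5 without untreated d14 replicate 3), 3 to 5 for treated against untreated d14, 0 to 1 for treated d14 against untreated d10 and 3 to 6 for the interaction. It was always 2 for untreated d10 against d6 and 0 for treated against untreated d10 and for treated d14 against treated d10.

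Replicate numbers were shared between groups, but deviations of same-numbered libraries correlated at only -0.31 to 0.239 and not above 0.1 in every pair of any 2 groups, so that the numbers do not pair the samples. With a replicate block the count was 1 (Alox15, log2 -1.39, edgeR adjusted p = 0.0409) for treated against untreated d10, with Hpgds (log2 -0.74, edgeR adjusted p = 0.0133), Ltc4s (log2 -0.75, edgeR adjusted p = 0.0193) and Ptgis (log2 -0.38, edgeR adjusted p = 0.0334) below a 2-fold change and 6 of 41 pathway genes lower, where calls over all genes went from 3 higher and 0 lower to 363 higher and 847 lower (57 and 166 by DESeq2, 329 and 823 with d10 replicates 1 to 3 alone), 4 for treated against untreated d14 and 6 for the interaction; no other count moved by more than 1.5 times. Replicate numbers found only among untreated d10 tumors get a block term of their own. Those libraries then add nothing to a fitted difference between groups. The block values for treated against untreated d10 therefore rest on untreated d10 replicates 1 to 3, which lie in another library set than treated d10. Against these replicates alone, Alox15 differed by -1.43 on the log2 scale, so the block is not a separate check. The lowest count of any of the 10 genes in a library was 109, and most groups held 3 mice.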
